A study of Mus musculus with 24 samples.

Results

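Foxp3 and the Ikaros family genes Ikzf1, Ikzf2, Ikzf3 and Ikzf4 were followed across sorted CD4 T cell subsets of lupus-prone mice. The rows were chosen by gene name, through the Ensembl IDs of the count table and GENCODE release M21. No measured value entered this rule, though earlier results of these data were known when the genes were chosen. The rows are 5 of the 39056 genes in the table, and all 5 passed the filter on low counts.

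The study sequenced total RNA of 4 subsets from NZBWF1/j females, which are hybrid mice prone to a disease resembling lupus, in 24 libraries with 3 per group. Treated mice were given recombinant mouse OX40L and mouse JAG1 by intraperitoneal injection, each at 2 mg/kg and weekly over 3 weeks, starting at an age of 23 weeks. OX40L binds the costimulatory receptor OX40 and JAG1 binds Notch receptors. Control mice of the same age and sex had PBS, and the cells of every group were collected at week 26.

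All sorted cells carried CD4. Conventional cells (Tconv) were sorted as negative for CXCR5 and GITR, and regulatory cells (Treg) as CXCR5-negative but GITR-positive. Follicular helper cells (TFH) were CXCR5-positive with high PD1 and absent or low GITR, and follicular regulatory cells (TFR) were CXCR5-positive with high PD1 and high GITR. No gate used FOXP3 or an Ikaros protein, so regulatory identity rested on GITR, which activated helper cells can also display. The labels do not say that the 3 libraries of a group came from separate mice. P-values therefore measure the spread between libraries, which may be technical.

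FOXP3 is the forkhead transcription factor that establishes and maintains the regulatory T cell programme, and loss of it causes fatal autoimmunity. The Ikaros proteins are zinc finger factors of lymphocytes that bind a short GGGAA core, pair with each other through a separate set of fingers and recruit the NuRD and Sin3 repressor complexes. Ikaros itself (Ikzf1) is present throughout the lymphoid lineage, Helios (Ikzf2) is carried by most thymus-derived Treg cells and keeps their identity stable, Aiolos (Ikzf3) is known from B cells and helper T cells, and Eos (Ikzf4) binds FOXP3 and helps it to silence genes.

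Between the highest and the lowest of the 8 group means, Foxp3 ranged 96.6-fold, Ikzf2 66.8-fold, Ikzf4 8.88-fold, Ikzf3 4.46-fold and Ikzf1 3.03-fold. A start-site window of the widest-ranging and of the narrowest-ranging member is printed. RefSeq windows on GRCm38.p6, from 250 bases before to 50 after a start site, were matched for 2 of the 5 members, each with 2 start sites, and the first window of each is given, plus strand, 5′ to 3′. Capitals mark CG dinucleotides and, in Foxp3, a TATAAA match.

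Foxp3 chrX:7579426-7579725: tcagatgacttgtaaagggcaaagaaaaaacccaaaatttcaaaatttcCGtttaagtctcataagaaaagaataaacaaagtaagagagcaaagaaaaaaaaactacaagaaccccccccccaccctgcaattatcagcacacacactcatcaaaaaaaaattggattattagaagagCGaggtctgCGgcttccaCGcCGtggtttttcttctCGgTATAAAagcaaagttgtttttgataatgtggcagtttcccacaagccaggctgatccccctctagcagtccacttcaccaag

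Ikzf1 chr11:11685675-11685974: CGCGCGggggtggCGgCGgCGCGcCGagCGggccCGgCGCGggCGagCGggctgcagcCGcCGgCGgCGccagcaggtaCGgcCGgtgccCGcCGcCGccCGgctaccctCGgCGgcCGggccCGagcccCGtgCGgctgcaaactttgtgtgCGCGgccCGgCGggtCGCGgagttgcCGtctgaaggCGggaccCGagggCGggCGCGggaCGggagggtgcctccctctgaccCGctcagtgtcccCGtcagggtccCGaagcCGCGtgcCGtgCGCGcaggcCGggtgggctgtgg

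The Foxp3 window held 6 CG dinucleotides at 40.7% G and C, against a median of 7 and 53.0% over 32544 windows. The Ikzf1 window held 52 at 81.3%. This contrast belongs to the windows shown, since the second windows were alike, with 8 CG dinucleotides at 47.7% in Foxp3 (from 7580233) and 2 at 49.0% in Ikzf1 (from 11689927). TATAAA was searched on both strands and lies in 13.6% of all windows. In Foxp3 its first base was 32 bases before the start site. The same Foxp3 window also held 1 GGGAA, the Ikaros core, and 2 TGTTT, a forkhead core, which occur in 62.7% and 50.5% of windows. The Ikzf1 window shown held none of these 3 motifs, and its second window held 2 GGGAA. These are matches of letters and show no binding.

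Library totals were 24.7 to 53.8 M (mega) counts, except in the control TFH libraries (2.54 to 15.2 M) and the control TFR libraries (4.85 to 9.62 M). Mitochondrially encoded genes held 9.50 to 16.9% of counts in control and 1.85 to 3.17% in treated libraries, so treatment and this share cannot be told apart in any comparison of treated with control mice. Markers of CD4 T cells (9 of 9 in the table, none at 0 in a group) summed to 2136 to 2891 CPM (counts per 1 M counts of the library) in control and 3171 to 4399 in treated libraries. Treg markers (Tnfrsf18, Foxp3, Il2ra, Ctla4) include the sorted antigen GITR and the member Foxp3. They summed to 1159.5 to 1905 in Treg and TFR libraries and to 115 to 624 in Tconv and TFH libraries. Follicular markers (Cxcr5, Pdcd1, Bcl6, Il21, Sh2d1a, Tox2) summed to 514 to 559 in treated against 817 to 1018 in control TFR libraries. Treg libraries had 253 to 267 against 353 to 464, TFH 781 to 981 against 793 to 1033 and Tconv 99.8 to 106 against 85.6 to 102. In TFR libraries Pdcd1, encoding PD1, was lower with treatment (138, 155 and 153 against 342, 446 and 406 CPM). Cxcr5 was higher there (138, 140 and 150 against 53.1, 74.1 and 46.4 CPM). In 5 libraries the kidney podocyte gene Nphs1 was at 19.3 to 184 CPM and elsewhere at most at 1.04. These were control Tconv 1 and 2, treated TFH 3, treated TFR 1 and treated Treg 3. Most tests of the members that use these libraries are given with and without them. Tests of other genes and of gene lists are given with all libraries only. Leaving the 5 libraries out leaves 1 control Tconv library, which is then assumed to vary like the other groups.

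Levels below are CPM scaled by TMM factors, as mean ± SD over 3 libraries, and differences are log2 fold changes ± SE from edgeR's quasi-likelihood test with Benjamini-Hochberg adjustment over 18789 tested genes at a threshold of 0.05. Levels of different genes are compared per kilobase of exon (RPKM). In bulk libraries fewer cells of a type and less RNA per cell cannot be told apart.

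Most of the 5 genes differed between the GITR-positive sorts and their GITR-negative or low counterparts. Treg against Tconv cells passed the test for 5 of 5 in control mice, where 9.3% of all tested genes passed, and for 5 of 5 in treated mice (11.9% of all genes). TFR against TFH cells passed for 4 of 5 in control (15.8%) and 4 of 5 in treated mice (9.56%). TFH against Tconv cells passed for 4 of 5 in control (25%) and 4 of 5 in treated mice (18.1%). The 2 regulatory subsets were closer, with 2 of 5 for TFR against Treg cells in control (9.75%) and 1 of 5 in treated mice (4.61%).

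In control mice the ranges of the libraries did not overlap for 5 genes between Treg and Tconv cells (in 35% of all genes), 4 between TFR and TFH (10.5%), 4 between TFH and Tconv (35%) and 4 between TFR and Treg cells (23.6%). In treated mice the numbers in the same order were 5 (57.9%), 5 (41.9%), 4 (54.9%) and 2 (46.3%).

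**Figure D1:**
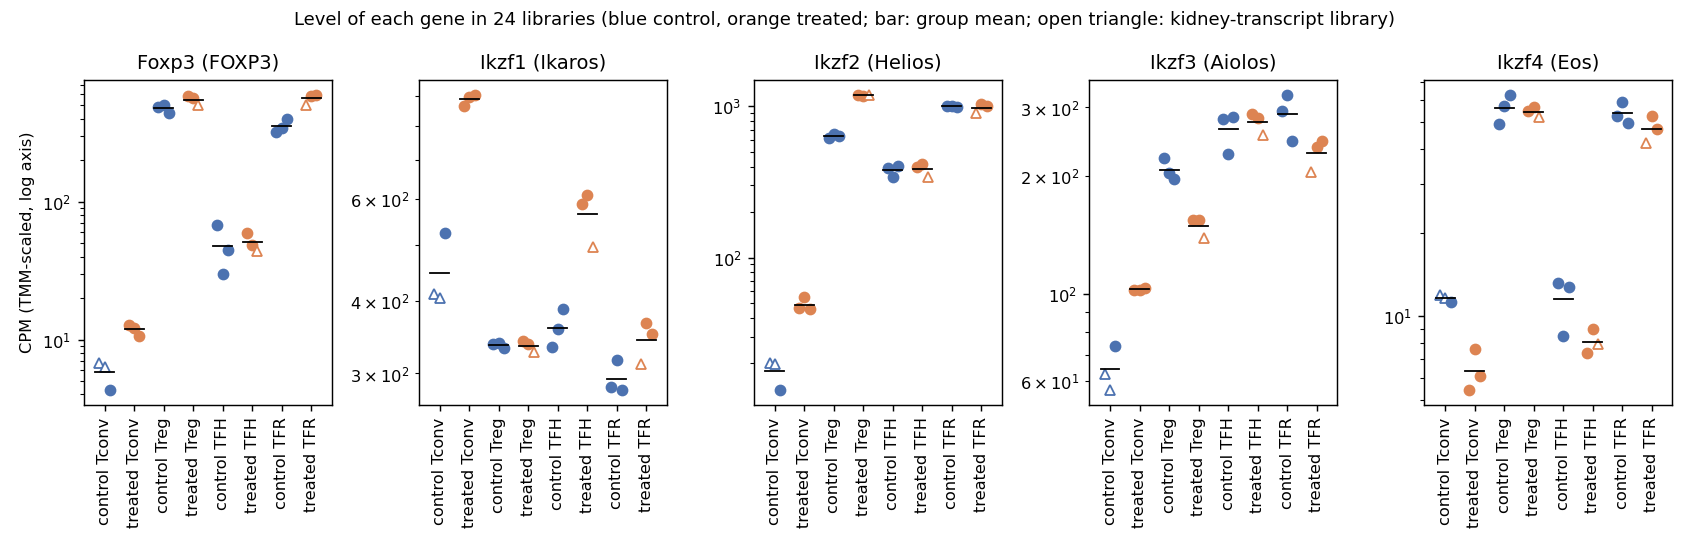
CPM (log axis) of the 5 genes in each of the 24 libraries by group, with blue for control, orange for treated, a bar for the group mean and open triangles for the 5 libraries with kidney transcripts. Foxp3 and Ikzf4 split the GITR-positive sorts (Treg, TFR) from the others, whereas Ikzf2 lay at 342 to 402 CPM in control TFH cells against 13.3 to 20.1 CPM in control Tconv cells.

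Foxp3 (ENSMUSG00000039521.12, mm10 chromosome X, 7573644 to 7595245, plus strand) followed the GITR gate. In control mice its CPM was 6.80, 6.31 and 4.31 in Tconv and 483, 498 and 439 in Treg libraries. Foxp3 in the follicular sorts of control mice was at 67.3, 29.7 and 44.9 CPM in TFH and 322, 341 and 398 CPM in TFR libraries. Every GITR-positive library was thus above every other one, and TFH libraries were above Tconv libraries without overlap. Foxp3 was 81.8-fold higher in Treg than Tconv cells (log2 fold change 6.35 ± 0.24, adjusted p = 1.4e-14) and 7.34-fold higher in TFR than TFH cells (2.88 ± 0.20, adjusted p = 2.4e-08). The lower step between the follicular sorts went with more Foxp3 on the GITR-low side, which was 8.32-fold higher in TFH than Tconv cells (3.06 ± 0.21, adjusted p = 5.3e-10). The lowest TFH value rested on 77 reads, in a library of 2.54 M counts. Control TFR cells were below control Treg cells in every library, at 354 ± 39.6 against 473 ± 30.6 CPM, but this did not pass (-0.42 ± 0.18, adjusted p = 0.17). With the kidney libraries left out, the Treg and TFH steps over Tconv cells were 6.78 and 3.47 (adjusted p = 1.7e-10 and 1.5e-07).

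In treated mice Foxp3 stood at 12.8, 12.1 and 10.7 CPM in Tconv, 581, 564 and 503 in Treg, 59.7, 48.8 and 43.8 in TFH and 499, 587 and 598 in TFR libraries. The gap between Treg and TFR cells seen in control mice was not seen here, since their ranges overlapped (0.03 ± 0.18, adjusted p = 0.99). Foxp3 was 46.3-fold higher in Treg than Tconv cells (5.53 ± 0.22, adjusted p = 1.4e-13) and 11-fold higher in TFR than TFH cells (3.47 ± 0.20, adjusted p = 3.1e-10). TFH cells again exceeded Tconv cells, 4.28-fold (2.10 ± 0.20, adjusted p = 5.1e-08). Leaving out the kidney libraries gave 5.60, 3.46, 2.18 and 0.04 (adjusted p = 4.2e-13, 2.1e-08, 6.9e-08 and 1) for these 4 comparisons, in the order Treg over Tconv, TFR over TFH, TFH over Tconv, TFR over Treg.

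Exons of Foxp3 share 590 bases with Ccdc22, 373 with Gm36995 and 266 with Ppp1r3f on the other strand, and 853 bases with Flicr on the same strand. The strand setting of the counting is not given in the sources used here, so reads there may be split wrongly. Flicr was not analysed here. Smaller overlaps exist for Ikzf2 (144 bases with Gm29114) and Ikzf4 (37 bases with Gm26876).

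Ikzf2 (ENSMUSG00000025997.13, mm10 chromosome 1, 69531214 to 69687245, minus strand), encoding Helios, was not confined to the regulatory sorts. Control libraries were at 20.1, 19.7 and 13.3 CPM in Tconv, 621, 661 and 637 in Treg, 392, 342 and 402 in TFH and 1004, 1004 and 990.1 in TFR cells. No 2 of these 4 groups overlapped, and TFR libraries were the highest. TFH cells, the GITR-low follicular sort, had 21.4-fold more Ikzf2 than Tconv cells (4.42 ± 0.13, adjusted p = 4.9e-16). Treg cells had 36.1-fold more than Tconv cells (5.18 ± 0.14, adjusted p = 1.3e-16), and TFR cells 2.64-fold more than TFH cells (1.40 ± 0.12, adjusted p = 1.7e-07). TFR cells also had more Ikzf2 than Treg cells (0.64 ± 0.12, adjusted p = 0.0011), while their Foxp3 was the lower of the pair. The Ikzf2 steps from Tconv to Treg and to TFH cells were 5.59 and 4.83 (adjusted p = 2.5e-14 and 5.9e-14) without the kidney libraries.

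In treated mice the order of the 2 regulatory means was reversed. Ikzf2 was at 1198, 1170.4 and 1185 CPM in Treg and 903, 1039 and 1005 CPM in TFR libraries, without overlap, a difference that did not pass (-0.27 ± 0.11, adjusted p = 0.28) except with limma voom and quality weights (adjusted p = 1.7e-08) and when only the groups compared were fitted (adjusted p = 0.0046). Treated Tconv and TFH libraries were at 46.4, 54.7 and 45.4 and at 397, 414 and 343 CPM. The steps from Tconv to Treg (4.60 ± 0.13, adjusted p = 7.2e-16), from Tconv to TFH (2.98 ± 0.12, adjusted p = 1.9e-13) and from TFH to TFR cells (1.35 ± 0.12, adjusted p = 9.9e-08) all passed. In the same order they were 4.60, 3.04 and 1.34 (adjusted p = 4.5e-17, 1.3e-14 and 7.6e-08) without the kidney libraries, and TFR against Treg cells was -0.22 (adjusted p = 0.58).

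Ikzf4 (ENSMUSG00000002578.16, mm10 chromosome 10, 128630843 to 128645991, minus strand), encoding the FOXP3 partner Eos, split the sorts by GITR as Foxp3 did, at 9.41 ± 1.13 RPKM in control Treg cells beside 103 ± 6.69 RPKM of Foxp3. Control values were 49.3, 57.1 and 62.9 CPM in Treg and 52.6, 59.2 and 49.4 CPM in TFR libraries. Outside the gate they were 11.9, 11.6 and 11.2 CPM in Tconv and 13.2, 8.50 and 12.7 CPM in TFH libraries, the TFH values resting on 76, 22 and 187 reads. The 2 GITR-positive sorts overlapped each other, and so did the 2 others. Alone of the 5 genes, Ikzf4 did not pass between TFH and Tconv cells (0.01 ± 0.19, adjusted p = 0.99). It passed for Treg against Tconv (2.28 ± 0.19, adjusted p = 1.8e-08) and for TFR against TFH cells (2.21 ± 0.20, adjusted p = 4.6e-07). The latter missed the threshold with voom (adjusted p = 0.067) and with only the groups compared (adjusted p = 0.053). Fitted without the kidney libraries, Treg and TFH against Tconv cells were 2.33 and 0.05 (adjusted p = 0.00069 and 1).

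Treated libraries were at 5.41, 7.59 and 6.07 CPM in Tconv, 54.8, 56.6 and 52.2 in Treg, 7.37, 8.95 and 7.96 in TFH and 42.0, 52.5 and 47.2 in TFR cells. The same division held, with log2 fold changes of 3.10 ± 0.20 for Treg against Tconv (adjusted p = 2.8e-10) and 2.54 ± 0.20 for TFR against TFH cells (adjusted p = 2.2e-08). Without kidney libraries these were 3.13 and 2.62 (adjusted p = 7.2e-08 and 2.3e-05).

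Ikzf1 (ENSMUSG00000018654.17, mm10 chromosome 11, 11685003 to 11772926, plus strand), encoding Ikaros, ran the other way, with its 4 lowest group means in the regulatory sorts. Control values were 411, 405 and 524 CPM in Tconv and 338, 338 and 332 CPM in Treg libraries, and 334, 357 and 387 CPM in TFH and 284, 317 and 281 CPM in TFR libraries. Tconv libraries were above those of every other control group, and the highest of them, control Tconv 3, was the only one without kidney transcripts. Ikzf1 was lower in Treg than Tconv cells (-0.41 ± 0.10, adjusted p = 0.0068), in TFH than Tconv cells (-0.31 ± 0.10, adjusted p = 0.023) and in TFR than TFH cells (-0.29 ± 0.10, adjusted p = 0.048). These 3 control calls were fragile. Without control Tconv 3 the first was -0.28 (adjusted p = 0.054) and the second -0.19 (adjusted p = 0.14), and without control TFH 1 the second had an adjusted p of 0.079. The second was also lost with voom (-0.18, adjusted p = 0.45) and with only the groups compared (-0.34, adjusted p = 0.15). Without the kidney libraries both were larger, at -0.64 and -0.55 (adjusted p = 0.0004 and 0.0014). The third, TFR against TFH cells, missed the threshold under 6 other settings (adjusted p = 0.061 to 0.79) and without control TFR 1, control TFR 3, control TFH 2 or control TFH 3 (adjusted p = 0.11, 0.12, 0.069 and 0.14).

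In treated mice the same 3 steps passed under every alternative run. Ikzf1 was at 866, 898 and 907 CPM in Tconv and 341, 338 and 326 CPM in Treg libraries (-1.41 ± 0.10, adjusted p = 9e-10). It was at 588, 609 and 496 CPM in TFH and 312, 367 and 351 CPM in TFR libraries (-0.72 ± 0.10, adjusted p = 2.8e-05). The TFH level lay below the Tconv level without overlap (-0.66 ± 0.10, adjusted p = 2.9e-05), and Treg and TFR levels overlapped. In the order given, the 3 steps were -1.39, -0.73 and -0.58 (adjusted p = 8.2e-10, 5e-05 and 6.3e-05) when the kidney libraries were left out.

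Ikzf3 (ENSMUSG00000018168.8, mm10 chromosome 11, 98464902 to 98546031, minus strand), encoding Aiolos, had its 4 highest group means in the follicular sorts. Control libraries were at 62.5, 57.0 and 74.0 CPM in Tconv, 222, 204 and 197 in Treg, 281, 228 and 284 in TFH and 294, 324 and 246 in TFR cells. Both follicular groups were above Treg libraries, which were above Tconv libraries, and TFH and TFR cells overlapped (0.12 ± 0.11, adjusted p = 0.55). Ikzf3 was higher in TFH than Tconv cells (2.04 ± 0.12, adjusted p = 2.1e-11), in Treg than Tconv cells (1.69 ± 0.12, adjusted p = 5.8e-10) and in TFR than Treg cells (0.47 ± 0.11, adjusted p = 0.01). The last missed the threshold without control Treg 3 (adjusted p = 0.052) and with only the groups compared (0.50, adjusted p = 0.051). TFH and Treg against Tconv cells were 1.83 and 1.49 (adjusted p = 2.6e-07 and 5.9e-06) without the kidney libraries.

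In treated mice Ikzf3 was at 102, 103 and 104 CPM in Tconv, 155, 154 and 139 in Treg, 288, 282 and 255 in TFH and 205, 237 and 246 in TFR libraries. No 2 of these groups overlapped. TFR against Treg cells was the comparison in which Ikzf3 alone of the 5 genes passed (0.62 ± 0.11, adjusted p = 0.0015). TFH against Tconv (1.42 ± 0.11, adjusted p = 5.8e-09) and Treg against Tconv cells (0.54 ± 0.11, adjusted p = 0.0019) passed as well. In that order the 3 were 0.64, 1.46 and 0.59 (adjusted p = 0.012, 2.6e-08 and 0.0023) without the kidney libraries.

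Per exon length the sorts differed in which Ikaros gene dominated. Of the summed RPKM of Ikzf1 to Ikzf4, Ikzf1 in control mice made up 87.6 ± 1.03% (Tconv), 39.7 ± 0.369% (Treg), 49.1 ± 3.08% (TFH) and 28.4 ± 0.755% (TFR). Ikzf2 made up 1.78 ± 0.574, 37.6 ± 0.824, 25.7 ± 1.04 and 48.2 ± 2.09% in the same order. Helios transcripts were thus the largest share in control TFR cells and Ikaros transcripts in the other 3 control sorts. The Ikzf3 share was largest in control TFH libraries at 23.8 ± 1.79%, and the Ikzf4 share ran from 1.5 ± 0.283% there to 6.43 ± 0.785% in control Treg libraries.

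With treatment Ikzf2 became the largest share in Treg libraries as well, at 54.6, 54.1 and 55.7% against 36.8, 38.4 and 37.8% in control libraries. In TFR libraries its share was 47.5 ± 0.379% treated and 48.2 ± 2.09% control, and these overlapped. In TFH libraries Ikzf1 went from 45.9 to 52.1% to 58.9 to 60.3%, and Ikzf2 from 24.8 to 26.8% to 20.1 to 20.4%, both without overlap. The shares were not tested, and exon lengths are approximate for Foxp3 and Ikzf4, whose annotation version in the table is 1 older than in release M21. Which gene leads in control Treg libraries rests on the exon lengths of 5777 bases for Ikzf1 and 11613 bases for Ikzf2. In CPM, Ikzf2 was already above Ikzf1 there, at 640 against 336.

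**Figure D2:**
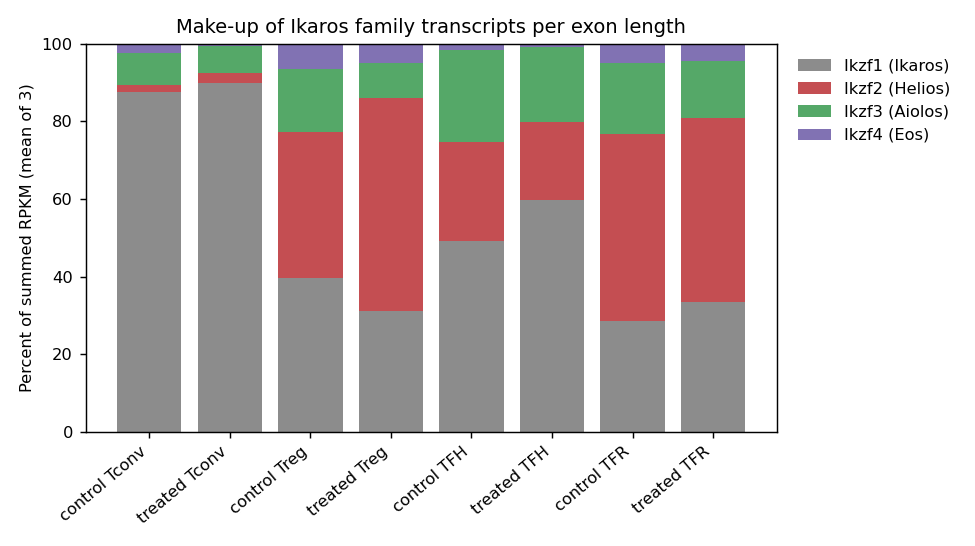
Percent of the summed RPKM of Ikzf1 to Ikzf4 held by each gene, as the mean of 3 libraries for each of the 8 groups in stacked bars from 0 to 100. Ikzf1 filled 87.6% of the control Tconv bar, and the Ikzf2 share grew from 37.6% to 54.8% between control and treated Treg bars.

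Treatment was called for the most members in the sort with the least Foxp3. In Tconv cells 5 of 5 passed the test, against 9.94% of all tested genes. The counts were 2 of 5 in Treg cells (8.73% of all genes), 1 of 5 in TFH cells (22.4%) and 2 of 5 in TFR cells (22%), the TFH count being close to the share of all genes. Treated and control libraries did not overlap for 5, 3, 1 and 2 of the 5 genes, where 43, 46.4, 35.3 and 43.3% of all tested genes did not overlap. The median log2 fold change over all tested genes was 0.02 in Tconv, 0.09 in Treg, 0.42 in TFH and 0.40 in TFR cells. The TFH and TFR medians set treated libraries against the shallowest control libraries, and the TFH median was smaller after thinning, as given below. These medians are therefore not free of the difference in depth.

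Marker sums of other lymphocytes also differed between treated and control libraries of most sorts, and Ikzf1 and Ikzf3 are known to be expressed in B and natural killer cells. Markers of CD8 T and natural killer cells (9 of 9 in the table) summed, in CPM of the library total, to 512 to 727 in treated against 45.1 to 56.3 in control TFH libraries and to 315 to 355 against 22.9 to 44.1 in TFR libraries. The sums were 112 to 114 against 27.7 to 30.0 in Treg and 152 to 161 against 46.0 to 57.1 in Tconv libraries. Eomes, which CD4 T cells can also express, made up most of this sum in treated TFH (583, 585 and 401 CPM) and TFR libraries (199.5, 223 and 234 CPM). Nkg7 (83.0, 83.1 and 65.8 against 2.09, 0 and 0.788 CPM) and Prf1 (47.5, 42.0 and 33.9 against 2.44, 3.55 and 0 CPM) rose with Eomes in TFH libraries. Klrd1 went the other way in TFH libraries, at 0.435, 1.64 and 0.556 CPM in treated and 1.57, 5.12 and 3.35 CPM in control ones. It did so in Treg libraries too, at 1.08, 0.595 and 0.889 CPM in treated and 3.025, 3.72 and 5.71 CPM in control ones. Cd8a was at 0 in all 4 follicular groups, Ncr1 in both TFH groups and control TFR, and Klrd1 and Nkg7 in control TFR. B cell markers (11 of 11) summed to 59.0 to 60.3 in treated against 11.9 to 18.6 in control Treg libraries, 67.8 to 81.0 against 4.95 to 32.9 in TFR, 78.2 to 104 against 55.2 to 113 in TFH and 11.4 to 12.3 against 7.62 to 46.5 in Tconv libraries. Single genes carried some of these sums. Ebf1 was at 36.7, 40.2 and 0.301 CPM in control Tconv libraries, high in the 2 with kidney transcripts, and Cd22 at 40.6, 39.5 and 36.0 CPM in treated Treg libraries, where Ms4a1 was at 0.0400, 0.167 and 0.262 and Cd79a at 0.139, 0.799 and 0.497 CPM. In control TFR libraries Cr2, Bank1 and Fcer2a were at 0, and Fcer2a also in control TFH. Plasma cell markers (5 of 5, Tnfrsf17 at 0 in control Treg, TFH and TFR, Mzb1 in control TFH) summed to 146 to 215 against 20.4 to 28.7 in TFH and 122 to 127 against 3.12 to 26.2 in TFR libraries, and to 27.7 to 29.9 against 10.4 to 16.2 in Treg and 28.5 to 32.5 against 7.90 to 9.19 in Tconv libraries. Jchain made up most of the plasma cell sum in treated TFH (202, 174 and 135 CPM) and TFR libraries (113, 117 and 113 CPM). Mzb1 rose with Jchain in TFH libraries, to 3.45, 4.34 and 4.37 CPM. Sdc1 went the other way in Treg libraries, at 0.936, 0.911 and 0.549 CPM in treated and 1.99, 4.34 and 3.35 CPM in control ones. Jchain also carried the Tconv sum, at 26.1, 29.1 and 29.6 against 5.34, 6.87 and 5.82 CPM. Sdc1 (0.774, 0.966 and 1.12 against 1.82, 1.02 and 1.42 CPM) and Derl3 (0.432, 0.752 and 0.766 against 0.445, 1.16 and 1.57 CPM) did not rise in Tconv libraries. Mzb1 did (1.02, 0.483 and 0.894 against 0.202, 0.036 and 0.392 CPM), and Tnfrsf17 was at most at 0.114 CPM there. The part of other lymphocytes in the results on Ikzf1 and Ikzf3 was not tested.

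**Figure D3:**
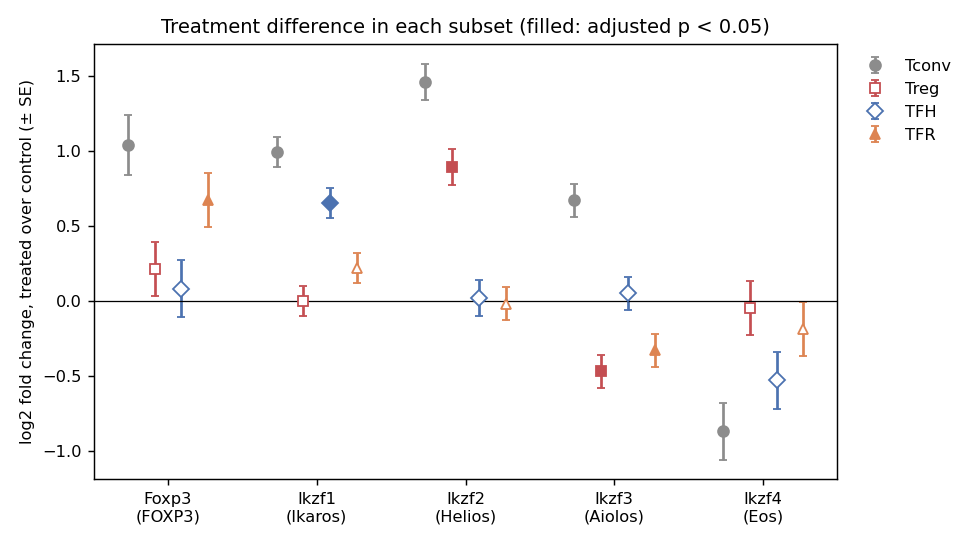
Log2 fold change of treated over control libraries (points, bars ± SE) for each gene in Tconv, Treg, TFH and TFR cells, filled where the adjusted p is under 0.05. Ikzf2 was raised in Tconv (1.46) and Treg cells (0.89) and near 0 in both follicular sorts, and Ikzf4 was called in Tconv cells alone.

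In Tconv cells Foxp3 rose from 6.80, 6.31 and 4.31 to 12.8, 12.1 and 10.7 CPM (171, 177 and 136 against 509, 407 and 384 reads; 1.04 ± 0.20, adjusted p = 0.0012). All treated libraries were above all control libraries, yet the treated level was 11.9 CPM beside 549 CPM in treated Treg cells. The lowest control value was that of control Tconv 3, and without the 5 kidney libraries, which leaves it alone, the difference was 1.47 (adjusted p = 0.0037). With every library thinned to 2.54 M counts it missed the threshold (1.17, adjusted p = 0.051), as with voom (0.85, adjusted p = 0.066). Per summed CPM of the T cell receptor chains Cd3d, Cd3e and Cd3g, Foxp3 was 0.0135, 0.0128 and 0.00688 in control and 0.00985, 0.00965 and 0.00855 in treated Tconv libraries, which overlapped with the treated mean the lower. The neighbour Ppp1r3f, whose exons overlap those of Foxp3, was at 8.19 ± 1.18 CPM in treated and 6.58 ± 0.969 CPM in control Tconv libraries, and its part in the Foxp3 counts was not tested.

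Ikzf2 rose in Tconv cells as well, from 20.1, 19.7 and 13.3 to 46.4, 54.7 and 45.4 CPM (1.46 ± 0.12, adjusted p = 1.4e-08). Ikzf1 was raised 1.99-fold, from 447 ± 66.9 to 890.4 ± 21.7 CPM (0.99 ± 0.10, adjusted p = 1.9e-07), which made treated Tconv cells the group with the most Ikaros transcript. Ikzf3 rose from 64.5 ± 8.67 to 103 ± 0.897 CPM (0.67 ± 0.11, adjusted p = 0.00026). Ikzf4 was the exception and fell, from 11.9, 11.6 and 11.2 to 5.41, 7.59 and 6.07 CPM (-0.87 ± 0.19, adjusted p = 0.0033). Without the kidney libraries Ikzf1 (0.77, adjusted p = 0.00017) and Ikzf2 (1.88, adjusted p = 1.1e-08) still passed, whereas Ikzf3 (0.48, adjusted p = 0.16) and Ikzf4 (-0.81, adjusted p = 0.37) did not, in a fit with a single control Tconv library that is assumed to vary like the other groups. The thinned fit also lost Ikzf4 (adjusted p = 0.073). Cd3d, Cd3e and Cd3g, set beside Foxp3 above, were higher in treated Tconv libraries too. In CPM of the library total they were at 243, 222 and 241 (Cd3d), 374, 371 and 383 (Cd3e) and 559, 539 and 523 (Cd3g). Control libraries were at 127, 119 and 154 (Cd3d), 212, 214 and 256 (Cd3e) and 176, 169 and 187 (Cd3g). Levels of the Ikaros genes relative to these receptor chains were not tested.

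In Treg cells Helios transcripts rose while the change in Foxp3 did not pass the test. Ikzf2 went from 621, 661 and 637 to 1198, 1170.4 and 1185 CPM, with no overlap (0.89 ± 0.12, adjusted p = 1.4e-05), and passed under every alternative run, at 0.85 to 0.98. Foxp3 was at 483, 498 and 439 CPM in control and 581, 564 and 503 CPM in treated libraries (0.21 ± 0.18, adjusted p = 0.62). Its ranges did not overlap, and voom (0.26, adjusted p = 0.0026) and the fit of only the groups compared (0.18, adjusted p = 0.034) called it. Ikzf3 fell from 222, 204 and 197 to 155, 154 and 139 CPM (-0.47 ± 0.11, adjusted p = 0.0082), a call lost without treated Treg 3 (-0.42, adjusted p = 0.064), without control Treg 1 (adjusted p = 0.06) and without the kidney libraries (-0.41, adjusted p = 0.059). Ikzf1 was at 335 ± 7.93 against 336 ± 3.66 CPM and Ikzf4 at 54.5 ± 2.19 against 56.4 ± 6.80 CPM, and neither passed (adjusted p = 1 and 0.95).

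In TFH cells only Ikzf1 passed. It rose from 334, 357 and 387 to 588, 609 and 496 CPM, without overlap (0.65 ± 0.10, adjusted p = 5.7e-05), against a median of 0.42 over all genes. That median was 0.13 after thinning, where Ikzf1 was at 0.64 (adjusted p = 6.7e-05). The lowest treated value was that of the kidney-transcript library TFH 3, and without the kidney libraries Ikzf1 was at 0.74 (adjusted p = 4.2e-06). Foxp3 (0.08 ± 0.19, adjusted p = 0.8), Ikzf2 (0.02 ± 0.12, adjusted p = 0.91) and Ikzf3 (0.05 ± 0.11, adjusted p = 0.76) lay near 0, below the shift of the typical gene. Ikzf4 was at 8.09 ± 0.799 against 11.5 ± 2.59 CPM and just missed the threshold (-0.53 ± 0.19, adjusted p = 0.054). It passed with relative log expression scaling (adjusted p = 0.037), DESeq2 (-0.60, adjusted p = 0.0017) and without control TFH 2 (-0.68, adjusted p = 0.0082).

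In TFR cells Foxp3 passed and Ikzf2 did not, the opposite of the calls in Treg cells. Foxp3 rose from 322, 341 and 398 to 499, 587 and 598 CPM, without overlap (0.67 ± 0.18, adjusted p = 0.012), where the median gene, over the shallow control TFR libraries, was at 0.40. It passed under every alternative run, the highest adjusted p being 0.048, and was at 0.76 (adjusted p = 0.01) without the kidney libraries. Per summed CPM of Cd3d, Cd3e and Cd3g, Foxp3 was 0.474, 0.552 and 0.511 in control and 0.512, 0.548 and 0.534 in treated TFR libraries, which overlapped, so no difference was seen relative to these receptor chains. Ikzf2 was at 1004, 1004 and 990.1 CPM in control and 903, 1039 and 1005 CPM in treated TFR libraries (-0.02 ± 0.11, adjusted p = 0.9). Ikzf3 fell from 294, 324 and 246 to 205, 237 and 246 CPM (-0.33 ± 0.11, adjusted p = 0.041), the nearest libraries of the groups being equal after rounding. This call was lost when any of 5 of the 6 libraries was left out (treated TFR 1, 2 or 3, control TFR 1 or 2; adjusted p = 0.057 to 0.2), under 5 other settings (adjusted p = 0.053 to 0.15) and without the kidney libraries (-0.24, adjusted p = 0.22). Ikzf1 (0.22 ± 0.10, adjusted p = 0.1) and Ikzf4 (-0.19 ± 0.18, adjusted p = 0.48) did not pass, but Ikzf1 did without the kidney libraries (0.30, adjusted p = 0.024) and with scaling that left out mitochondrial, receptor and haemoglobin genes (0.33, adjusted p = 0.018).

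Whether the treatment effect itself differed between sorts was tested with interaction terms. The effect on Ikzf2 was smaller in TFR than in Treg cells (-0.91 ± 0.16, adjusted p = 0.0016), the 1 of 5 genes to pass where 7.49% of all genes did. It was -0.85 (adjusted p = 0.00056) without the kidney libraries. The term for Foxp3 pointed the other way and did not pass (0.45 ± 0.26, adjusted p = 0.34), except with only the groups compared (0.44, adjusted p = 0.035). Between Treg and Tconv cells 2 of 5 passed (2.68% of all genes), Ikzf1 at -1.0 ± 0.14 (adjusted p = 0.00014) and Ikzf3 at -1.15 ± 0.16 (adjusted p = 0.00016), both with the smaller or negative effect in Treg cells. Without the kidney libraries they were -0.75 (adjusted p = 0.012) and -0.90 (adjusted p = 0.049). Ikzf2 missed the threshold there (-0.58 ± 0.16, adjusted p = 0.065) and passed without the kidney libraries (-0.98, adjusted p = 0.0019) and after thinning (-0.72, adjusted p = 0.044). Foxp3 did not pass (-0.82 ± 0.27, adjusted p = 0.11) except with only the groups compared (-0.68, adjusted p = 0.034). The Ikzf4 term had the opposite sign and did not pass (0.82 ± 0.26, adjusted p = 0.096). Ikzf4 passed with voom (0.84, adjusted p = 0.002), DESeq2 (0.94, adjusted p = 4.2e-05) and only the groups compared (0.96, adjusted p = 0.0054), and not without the kidney libraries (0.81, adjusted p = 1).

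Between TFH and Tconv cells 3 of 5 passed (19.6% of all genes), namely Ikzf2 (-1.44 ± 0.17, adjusted p = 1.2e-05), Foxp3 (-0.96 ± 0.28, adjusted p = 0.024) and Ikzf3 (-0.62 ± 0.16, adjusted p = 0.014). Each responded less in TFH cells. Without the kidney libraries Ikzf2 passed (-1.78, adjusted p = 1.7e-06), and Foxp3 (-1.29, adjusted p = 0.072) and Ikzf3 (-0.37, adjusted p = 0.47) did not. The Foxp3 term was also lost without treated Tconv 1, treated Tconv 2, treated TFH 3 or control TFH 1 (adjusted p = 0.054 to 0.067), with voom (-0.76, adjusted p = 0.46), with only the groups compared (-0.85, adjusted p = 0.2) and after thinning (-1.10, adjusted p = 0.1). Between TFR and TFH cells 0 of 5 passed in edgeR (7.05% of all genes). Foxp3, Ikzf1 and Ikzf3 had unadjusted p values of 0.038, 0.0054 and 0.026 there, DESeq2 called 2 of 5 and voom 0 of 5.

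Set against each other within a library, Helios and Foxp3 transcripts gave a ratio that moved in opposite directions in the 2 regulatory sorts. The ratio of Ikzf2 to Foxp3 RPKM was 0.507, 0.524 and 0.572 in control Treg libraries and 0.812, 0.818 and 0.929 in treated ones. In TFR libraries the same ratio was 1.23, 1.16 and 0.981 in control and 0.714, 0.698 and 0.663 in treated mice. Treated libraries were thus all higher in Treg cells and all lower in TFR cells, and TFR cells had the higher ratio in control mice and the lower one in treated mice. Outside the regulatory sorts the RPKM ratio was 2.30, 4.53 and 3.52 in control and 2.62, 3.34 and 3.08 in treated TFH libraries, which overlapped. It was 1.17, 1.23 and 1.22 in control and 1.43, 1.79 and 1.67 in treated Tconv libraries, where both genes are low. The ratios were not tested.

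**Figure D4:**
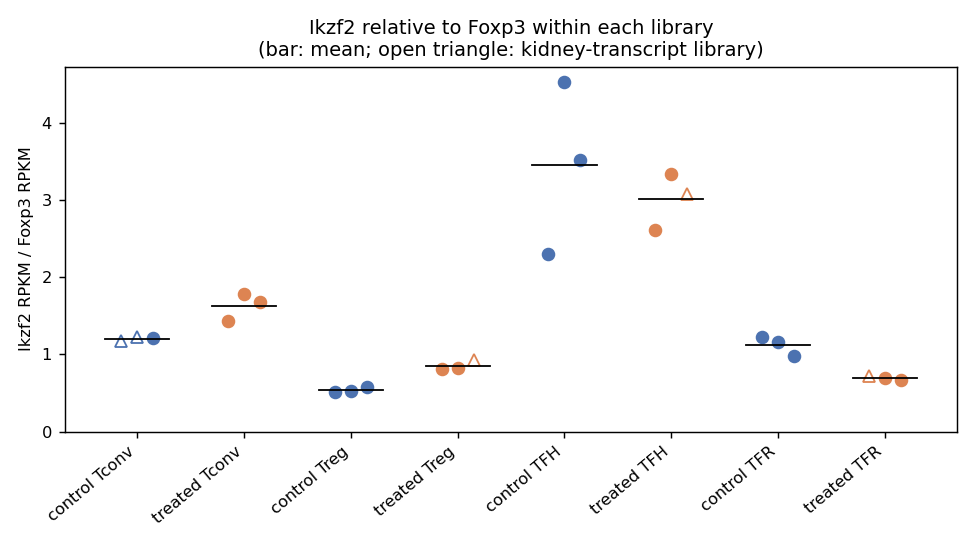
Ratio of Ikzf2 to Foxp3 RPKM in each of the 24 libraries, by sort and treatment, with bars at the mean of 3. Mean ratios went from 0.534 to 0.853 in Treg and from 1.12 to 0.692 in TFR cells, and the TFH sort had the highest ratios.

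Across the 24 libraries the members' log2 CPM values were related to each other to very different degrees. Pearson's r was 0.937 for Foxp3 with Ikzf2, 0.894 for Foxp3 with Ikzf4 and 0.634 for Foxp3 with Ikzf3, and -0.7 for Foxp3 with Ikzf1. The most opposed pair was Ikzf1 and Ikzf4, at -0.802. The libraries come from 8 groups, so these values include the differences between sorts, and the libraries share the scaling.

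Among 10188 genes with a mean of at least 5 CPM, genes that do not code for protein and those with Gm or Rik names were passed over. Of the rest, those closest in pattern to Foxp3 by r over the 24 libraries were Lclat1 (0.98), Nrn1 (0.975) and Tnfrsf4 (0.966). Tnfrsf4 encodes OX40, the receptor of the injected OX40L, Lclat1 a lysophospholipid acyltransferase and Nrn1 the membrane-anchored protein neuritin. Closest to Ikzf2 were Ctla4 (0.986), Tiam1 (0.983) and Cd83 (0.983), with Ctla4 encoding an inhibitory receptor of Treg cells. For Ikzf4 they were Tnfrsf18 (0.94), Gbp3 (0.924) and Swap70 (0.907), where Tnfrsf18 encodes GITR and so was used in the sort. For Ikzf3 they were Tox (0.971), Rgs16 (0.966) and Tox2 (0.962), the TOX genes encoding nuclear factors known from follicular helper cells. For Ikzf1 they were Slc38a2 (0.939), Znrf1 (0.918) and Srsf7 (0.914), with Slc38a2 an amino acid transporter and Srsf7 a splicing factor.

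The genes known to be raised by Foxp3 in Treg cells were mostly higher in the GITR-positive sorts and, among the others, in TFH than Tconv cells. They moved in both directions with treatment. Of all tested genes, 9.94% (1294 higher, 574 lower) passed with treatment in Tconv, 8.73% (972 higher, 668 lower) in Treg, 22.4% (3099 higher, 1101 lower) in TFH and 22% (2934 higher, 1201 lower) in TFR cells, and 9.3% (1109 higher, 638 lower) between control Treg and Tconv cells. Leaving out Ikzf2 and Ikzf4, 18 such genes were listed, all tested. They include Tnfrsf18, which encodes the sorted antigen GITR, so its difference between the sorts followed from the gate. For Treg against Tconv cells of control mice 14 were higher and 0 lower (median log2 fold change 3.18), against -0.06 over all genes. For TFR against TFH cells of control mice 13 were higher and 0 lower (median log2 fold change 1.12), against 0.00 over all genes, of which 15.8% passed. Between TFH and Tconv cells, neither of them a regulatory sort, 12 were higher and 1 lower in control mice (median log2 fold change 1.99). In treated mice 15 were higher and 0 lower (median log2 fold change 1.83). Over all genes these medians were -0.31 in control and 0.14 in treated mice, with 25 and 18.1% called. With treatment 4 were higher and 2 lower (median log2 fold change 0.16) in Tconv cells and 4 were higher and 3 lower (median log2 fold change 0.38) in Treg cells. In TFH cells 4 were higher and 7 lower (median log2 fold change -0.02), and in TFR cells 7 were higher and 3 lower (median log2 fold change 0.54). Over all genes the treatment medians were 0.02, 0.09, 0.42 and 0.40 in Tconv, Treg, TFH and TFR cells.

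Il2ra, the high-affinity IL-2 receptor chain, rose in Treg (215 ± 3.93 against 113 ± 14.3 CPM, log2 fold change 0.93 ± 0.17, adjusted p = 0.0009) and TFR cells (1.49 ± 0.18, adjusted p = 2.6e-06). Ctla4 rose in Tconv cells, 103 ± 6.35 against 35.8 ± 3.55 CPM (1.53 ± 0.09, adjusted p = 7.8e-11), fell in TFH cells (-0.25 ± 0.09, adjusted p = 0.038) and did not pass in Treg or TFR cells. Tigit, an inhibitory receptor, fell in every sort, by most in Treg cells (-1.18 ± 0.13, adjusted p = 1.6e-06). Icos, a costimulatory receptor of follicular cells, fell in TFH (-0.70 ± 0.11, adjusted p = 0.00013) and TFR cells (-0.49 ± 0.11, adjusted p = 0.0032). Tnfrsf4 rose in TFR cells (0.62 ± 0.13, adjusted p = 0.0019) and fell in TFH cells (-0.60 ± 0.14, adjusted p = 0.0033). Tnfrsf18, the sort marker GITR, fell in Treg cells (-0.72 ± 0.14, adjusted p = 0.00095), and in Tconv and TFH cells too.

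Of 14 genes known to be lowered by Foxp3, all tested, 2 were higher and 7 lower (median log2 fold change -1.01) in Treg than Tconv cells of control mice. In TFH against Tconv cells of control mice 2 were higher and 8 lower (median log2 fold change -0.97). Over all genes that median was -0.31, with 25% called. With treatment 5 were higher and 3 lower (median log2 fold change 0.92) in Tconv cells and 2 were higher and 4 lower (median log2 fold change -0.53) in Treg cells. Over all genes the treatment medians were 0.02, 0.09, 0.42 and 0.40 in Tconv, Treg, TFH and TFR cells, with 9.94, 8.73, 22.4 and 22% called. Between control Treg and Tconv cells the median was -0.06, with 9.3% called. In TFH cells 5 of the 14 were higher and 3 lower (median log2 fold change 0.38), and in TFR cells 4 were higher and 2 lower (median log2 fold change -0.02). Among them Satb1, a chromatin organizer that Foxp3 holds down in Treg cells, fell furthest in Treg cells, 186 ± 4.35 against 766 ± 10.9 CPM (-2.04 ± 0.10, adjusted p = 2.3e-12), and also in Tconv (-0.47 ± 0.09, adjusted p = 0.0014) and TFH cells (-1.01 ± 0.09, adjusted p = 1e-07). Lef1, a factor of naive T cells, fell in Treg cells (-1.07 ± 0.17, adjusted p = 0.00012). Its relative Tcf7 rose in Tconv (0.62 ± 0.10, adjusted p = 9.2e-05) and TFH cells (0.41 ± 0.10, adjusted p = 0.004). Ptpn22, a phosphatase that restrains T cell receptor signalling, fell in all 4 sorts, by 0.38 to 0.58 on the log2 scale.

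Of 24 regulators of Foxp3 transcription, all tested, 9 were higher and 4 lower (median log2 fold change 0.27) with treatment in Tconv cells and 7 were higher and 6 lower (median log2 fold change 0.02) in Treg cells. In TFH cells 9 were higher and 7 lower (median log2 fold change 0.07), and in TFR cells 7 were higher and 7 lower (median log2 fold change 0.06). Beside these stand 9.94, 8.73, 22.4 and 22% of all genes called and medians of 0.02, 0.09, 0.42 and 0.40 in Tconv, Treg, TFH and TFR cells. Stat5b, which carries the IL-2 signal to the Foxp3 locus, fell in all 4 sorts, including TFR cells where Foxp3 rose (311 ± 26.4 against 632 ± 28.5 CPM, -1.02 ± 0.10, adjusted p = 2.3e-07). Rel, the NF-kappaB subunit that opens the locus, rose in Tconv cells (0.89 ± 0.13, adjusted p = 3.4e-05) and passed in no other sort. Ets1, another activator of the locus, fell in Treg cells alone (-0.49 ± 0.09, adjusted p = 0.00068).

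Of 18 genes whose proteins bind or modify FOXP3, all tested, 2 were higher and 2 lower (median log2 fold change 0.11) with treatment in Tconv cells and 3 were higher and 4 lower (median log2 fold change -0.15) in Treg cells. In TFH cells 4 were higher and 5 lower (median log2 fold change -0.21), and in TFR cells 5 were higher and 3 lower (median log2 fold change 0.05). All genes passed at the same 9.94, 8.73, 22.4 and 22%, with medians of 0.02, 0.09, 0.42 and 0.40. Foxp1, a forkhead relative that pairs with FOXP3, fell in Treg (208 ± 8.58 against 499 ± 11.8 CPM, -1.27 ± 0.10, adjusted p = 6.9e-09), TFH (-0.92 ± 0.10, adjusted p = 6.1e-07) and TFR cells (-1.32 ± 0.10, adjusted p = 2.9e-09). Hif1a, a hypoxia factor that promotes FOXP3 breakdown, fell in the same 3 sorts, by most in TFH cells (-0.99 ± 0.09, adjusted p = 7.5e-08). Irf4, which works with FOXP3 in effector Treg cells, fell in TFH cells (-0.76 ± 0.14, adjusted p = 0.00069), and the deubiquitinase gene Usp7 passed in none.

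Among 21 genes for NuRD, Sin3 and other partners of the Ikaros proteins, all tested, 3 were higher and 0 lower (median log2 fold change 0.17) in Tconv cells and 4 were higher and 1 lower (median log2 fold change 0.18) in Treg cells. In TFH cells 7 were higher and 1 lower (median log2 fold change 0.36), and in TFR cells 10 were higher and 1 lower (median log2 fold change 0.43), beside medians of 0.42 and 0.40 and called shares of 22.4 and 22% over all genes. For Tconv and Treg cells the medians over all genes were 0.02 and 0.09 and the called shares 9.94 and 8.73%. Chd3, a NuRD remodeller, rose in all 4 sorts, most in TFH cells (622 ± 66.0 against 208 ± 24.9 CPM, 1.58 ± 0.15, adjusted p = 8.1e-08). The related remodeller Chd4 rose in TFH (0.36 ± 0.08, adjusted p = 0.0022) and TFR cells (0.43 ± 0.08, adjusted p = 0.00042), Smarca4 in Treg, TFH and TFR cells, and Mta2 passed in none. Ikzf5, the family gene for Pegasus, was in this list and not among the 5 members. It was at 76.5 ± 4.80 against 59.8 ± 8.69 CPM in Tconv cells and passed with treatment in no sort, and 81.3% of its exon length overlaps Pstk, so its level is uncertain.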

How the data were processed

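Raw read counts per Ensembl gene were deposited by the authors as 1 table of 39056 genes and 24 libraries. Per the submitters' processing notes STAR, featureCounts and the mm10 genome were used. Versions, annotation and strand setting were not given in the sources used here. Per the labels' protocols, libraries were made from total RNA depleted of ribosomal RNA. IDs were matched without version to GENCODE release M21, which held 38872 of them.

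The 18789 genes passing filterByExpr by group were put through edgeR 4.0.16 (R 4.3.3), with TMM factors, 8 group means over all 24 libraries, no covariates and a two-sided quasi-likelihood F test adjusted by Benjamini-Hochberg. The standard error is the size of the log2 fold change over the square root of F. RPKM divides CPM by the union of exons in M21.

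The members, gene lists and named genes were chosen with earlier results of these data known. Named are the 5 members, the 3 genes closest to each in log2 CPM, the 4 most abundant genes of each list, and Il2ra, Ctla4, Tnfrsf18, Ikzf5 and Satb1. Examples within lists were selected after their values were seen, and some marker genes are not reported here.

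Alternatives were RLE factors, no low-count filter, the replicate number as a block, scaling without mitochondrial, receptor and haemoglobin genes, limma 3.58.1 voom with quality weights, DESeq2 1.42.0, only the groups compared, and leaving out each library. Added after seeing the data were a fit without the 5 libraries with Nphs1 over 10 CPM and at least 10 times the lowest of their group, and thinning of all libraries to 2.54 M counts. No 2 libraries of a group agreed within counting error (chi-square over degrees of freedom at least 4.70), and each counts as 1 replicate.

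On simulated data with 200 changed genes of at least 10 CPM, a log2 fold of 1 was recovered for 61% in Tconv (18117 genes tested), 49% in Treg (18048), 39% in TFH (18185) and 52% in TFR cells (18063) for treatment. A log2 fold of 2 was recovered for 83, 91, 85 and 81% in the same order. The changed genes were drawn at random, so these shares do not describe the 5 members. The coefficient of variation beyond counting error was 0.0931 to 0.162 for the members, against a common value of 0.617 over all genes.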

Additional observations from a re-analysis of the deposited data

Results flagged for a closer look

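In 6 cases an interaction term of edgeR's quasi-likelihood test found that treatment changed a gene differently in 2 sorts. For Ikzf3 the Treg and Tconv effects had opposite signs, -0.47 ± 0.11 in Treg and 0.67 ± 0.11 in Tconv cells, a difference of -1.15 ± 0.16 (adjusted p = 0.00016). For Ikzf1 the effect was -0.00 ± 0.10 in Treg against 0.99 ± 0.10 in Tconv cells, a difference of -1.0 ± 0.14 (adjusted p = 0.00014). For Ikzf2 it was -0.02 ± 0.11 in TFR against 0.89 ± 0.12 in Treg cells, a difference of -0.91 ± 0.16 (adjusted p = 0.0016).

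The other 3 set TFH against Tconv cells. Ikzf2 stood at 0.02 ± 0.12 in TFH and 1.46 ± 0.12 in Tconv cells, a difference of -1.44 ± 0.17 (adjusted p = 1.2e-05). Ikzf3 stood at 0.05 ± 0.11 and 0.67 ± 0.11, a difference of -0.62 ± 0.16 (adjusted p = 0.014). Foxp3 stood at 0.08 ± 0.19 and 1.04 ± 0.20, a difference of -0.96 ± 0.28 (adjusted p = 0.024).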

How the results depend on the processing

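Counts of the 5 genes called by edgeR moved as follows, leaving out moves by 1 gene between counts of 2 to 5. Without the kidney libraries they went from 5 to 3 for treatment in Tconv, from 2 to 1 in Treg cells and from 3 to 1 for TFH minus Tconv effects, and thinning gave 3 in Tconv cells. For treatment in TFR cells no filter, the replicate block, voom and only the groups compared each gave 1 in place of 2. In TFH cells RLE and DESeq2 gave 2 in place of 1, and for TFR minus TFH effects 1 and 2 in place of 0. With only the groups compared, TFR against TFH control cells gave 2 in place of 4 (as did voom), TFR against Treg cells 1 in place of 2 in control and 3 in place of 1 in treated mice (as did voom), Treg minus Tconv effects 4 in place of 2 and TFR minus Treg effects 2 in place of 1. Leaving out 1 library gave 1 to 2 for treatment in Treg, 1 to 2 in TFH and 1 to 2 in TFR cells, 1 to 2 for control TFR against Treg cells and 0 to 1 for TFR minus TFH effects. Moves left out include the loss of Foxp3 for treatment in Tconv cells with voom (adjusted p = 0.066) and its gain in Treg cells with voom (adjusted p = 0.0026). Another is the loss of Ikzf1 for control Treg against Tconv cells without control Tconv 3 (adjusted p = 0.054 in edgeR). The cause of the moves was not tested.

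Signs turned only for values near 0 that were not called. For treatment in Treg cells Ikzf1 was 0.01 with RLE, voom and DESeq2, 0.09 with scaling without mitochondrial genes and 0.03 without the kidney libraries (without 1 library -0.01 to 0.02), and Ikzf4 0.04 with that scaling (-0.13 to 0.04). In TFH cells Ikzf2 was -0.01 with RLE, DESeq2 and thinning (-0.04 to 0.10), Ikzf3 -0.02 with thinning (-0.04 to 0.11) and Foxp3 -0.13 to 0.40 without 1 library. In TFR cells Ikzf2 was 0.08 with that scaling, 0.01 with voom and 0.04 without the kidney libraries (-0.06 to 0.04), and its TFR minus TFH effect 0.01 and 0.00 with that scaling and voom (-0.12 to 0.03). Ikzf4 for TFH against Tconv control cells was -0.00 with RLE, -0.02 without filter, -0.05 with that scaling, -0.04 with only the groups compared and -0.12 with thinning (-0.10 to 0.16), and for TFR against Treg control cells 0.01 with RLE and 0.02 with DESeq2 (-0.16 to 0.01). In treated TFR against Treg cells Foxp3 and Ikzf1 were -0.01 with only the groups compared (-0.03 to 0.11 and -0.02 to 0.10).

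Over all genes the median Treg minus Tconv effect went from -0.02 to 0.10 with RLE and 0.13 with scaling without mitochondrial genes, and that of treated Treg against Tconv cells from 0.01 to 0.15. Replicate numbers did not pair the libraries (median r of deviations -0.000695 over 84 same-number pairs, 7 above 0.1, 6 of 24 libraries closest to their own number). With the replicate block Ikzf3 in TFR cells was -0.33 (adjusted p = 0.059) and Ikzf1 for control TFR against TFH cells -0.29 (adjusted p = 0.063), and the block changed no other call. Depth was least in control TFH libraries, where Ikzf4 rested on 76, 22 and 187 reads.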

Other observations

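Per exon length, Aiolos transcripts were lower relative to Ikaros transcripts in the treated libraries of every sort, without overlap in any. The ratio of Ikzf3 to Ikzf1 RPKM was 0.10, 0.0928 and 0.0932 in control and 0.0780, 0.0753 and 0.0756 in treated Tconv libraries, and 0.435, 0.398 and 0.391 against 0.299, 0.302 and 0.282 in Treg libraries. In follicular sorts the Ikzf3 to Ikzf1 ratio was 0.555, 0.421 and 0.484 in control against 0.323, 0.305 and 0.339 in treated TFH libraries, and 0.682, 0.675 and 0.579 against 0.434, 0.427 and 0.463 in TFR libraries.

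Eos transcripts were likewise lower relative to Foxp3. The ratio of Ikzf4 to Foxp3 RPKM was 0.412 ± 0.0810 in treated against 1.58 ± 0.361 in control Tconv, 0.124 ± 0.0260 against 0.195 ± 0.0389 in TFH and 0.0643 ± 0.00406 against 0.117 ± 0.0199 in TFR libraries, none of these overlapping. In Treg libraries it was 0.0760 ± 0.00372 against 0.0916 ± 0.0161, and these overlapped.

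The 4 Ikaros genes together summed to 171 ± 4.06 RPKM in treated and 88.2 ± 12.2 RPKM in control Tconv libraries, and to 178 ± 14 and 179 ± 8.94 RPKM in TFR libraries. The sums were 186 ± 2.97 and 146 ± 1.69 RPKM in Treg and 164 ± 15.6 and 127 ± 8.79 RPKM in TFH libraries. Treated sums were above control sums without overlap in Tconv, Treg and TFH libraries and overlapped them in TFR libraries. These ratios and sums were chosen after the values were seen and were not tested.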
